A study of Saccharomyces cerevisiae with 4 samples.

Results

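Fatty acid synthesis, elongation and desaturation in budding yeast were followed through 10 genes: ACC1, FAS1, FAS2, OLE1, ELO1, FEN1, SUR4, FAA1, FAA4 and MGA2. They were chosen by name from 6225 genes or reading frames with a yeast probe, with earlier results of these data known. All 10 had 1 probe, spotted in 2 places on each array. The scanner files name probes by reading frame, so each symbol was matched through its locus tag. FEN1 is ELO2 (YCR034W) and SUR4 is ELO3 (YLR372W) in the current gene table, and RAD27, which also carries the old name FEN1, was not used.

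The cells were Saccharomyces cerevisiae labelled BY4741, a common laboratory strain, and all cultures carried Msn2A6 under estradiol control and grew exponentially in rich glucose medium. Msn2 is a transcription activator of the general stress response, kept in check by protein kinase A, and the A6 form escapes that kinase. The untreated group (0 min, no estradiol) and the induced group (90 min after 6 nM 17β-estradiol) held 2 arrays each, described by the series as biological replicates. Neither an untreated culture at 90 min nor estradiol without Msn2A6 is among the samples, so estradiol, Msn2A6 and 90 min of growth cannot be told apart, and the labels give no further genotype. The arrays were Agilent 1-colour arrays, which report spot brightness (intensity) for each probe.

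The inducible gene was checked first. The MSN2 probe gave log2 signals of -7.27 and -7.35 at 0 min and -4.73 and -4.95 at 90 min, a rise of 2.47 ± 0.09 (SE, n = 2 per group; limma, adjusted p = 1.34e-06) that cannot separate the allele from any chromosomal copy. The genes of mating type a, the type of BY4741, had log2 signals of -3.65 to 0.55, and all 6 fell, beside 46.2% of all genes. The 3 genes of mating type alpha had signals of -8.88 to -6.49, a range that also holds the MSN2 signals at 0 min. Of these 3, MF(ALPHA)1 was called as fallen, by 0.65 ± 0.06 (limma, adjusted p = 6.65e-05), so calls also occur among signals this low. Over probes, the 2 arrays of a group had a Pearson correlation of 0.9990 at 0 min and 0.9985 at 90 min. All levels are set against the array's own 75th percentile, a scale on which the median change over genes was -0.13 (log2). Scaling on spike-in control RNA moved every change by a further -0.45. The spike-in signal itself differed by 0.24 log2 between the 0 min arrays. A shift of that size thus enters the replicate gap of every gene on that scale. On that scale 745 of the 6144 genes tested rose and 4090 fell, with a median of -0.58.

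As background, cytosolic fatty acid synthesis starts when acetyl-CoA carboxylase turns acetyl-CoA into malonyl-CoA, which fatty acid synthase uses to build saturated acyl chains. A desaturase in the endoplasmic reticulum introduces the double bond of the unsaturated chains, and elongases of the same membrane extend acyl chains for sphingolipids. Acyl-CoA synthetases activate fatty acids that come from outside the cell or are set free inside it.

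Of the 10 genes, 9 fell at 90 min and 0 rose, and FAA1 did not pass the test (limma with Benjamini-Hochberg adjustment over all 6175 probes, adjusted p under 0.05). At an unadjusted p under 0.05 the counts were also 9 and 0. FAS1, FAS2 and OLE1 fell most, each by more than 2-fold, ACC1, FEN1, SUR4 and FAA4 fell between 1.67-fold and 1.85-fold, and MGA2 and ELO1 fell by 1.22-fold and 1.15-fold. The median log2 change of the 10 genes was -0.85, beside -0.13 over all 6144 genes tested. Falls were common on these arrays, since 76.5% of all genes passed the test, 46.2% as falls and 30.3% as rises. At least 2-fold falls were rarer, at 3.87% of all genes, against 3 of these 10. Of the 10 genes, 7 lay among the tenth of genes with the lowest changes. The 10 were chosen with earlier results of these data known, so neither share is a test of the list. The groups did not overlap for any of the 10, nor for 88.4% of all genes, so the absence of overlap says little by itself. These are bulk cultures, in which fewer cells of a kind and less RNA per cell cannot be told apart.

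**Figure D1:**
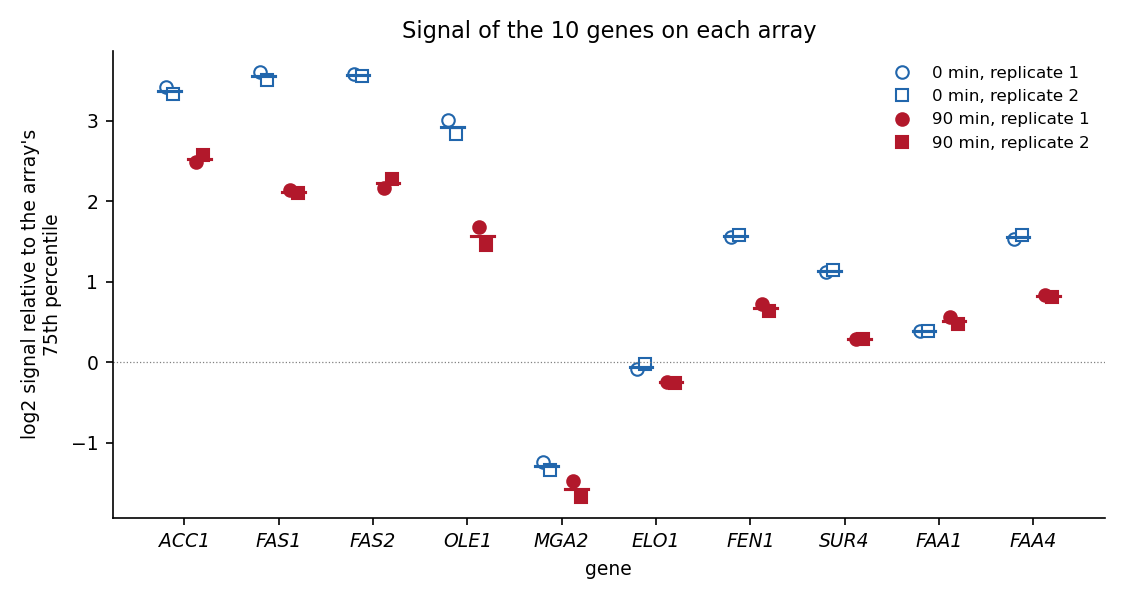
Log2 signal of each of the 10 genes on each of the 4 arrays, where 0 is the array's 75th percentile; open blue symbols are 0 min, filled red symbols 90 min, circles replicate 1, squares replicate 2, and short lines the mean of 2 arrays. The 90 min symbols lie below the 0 min symbols for 9 genes and above them for FAA1; heights of different genes are not comparable, because each has its own probe.

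The first step was lower at 90 min. ACC1 (YNR016C), the biotin-dependent acetyl-CoA carboxylase, gave a signal of 10.7 and 10.1 times the array's 75th percentile at 0 min and 5.59 and 5.96 times at 90 min. Both 90 min arrays were lower than both 0 min arrays, and the 2 arrays of a group differed little. Its log2 change was -0.85 ± 0.06 (SE, n = 2 per group; limma, adjusted p = 3.94e-05), a 1.80-fold fall, and 6.19% of all genes had a lower change.

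Both subunits of the cytosolic fatty acid synthase fell further. FAS1 (YKL182W), which encodes the beta subunit, gave 12.2 and 11.4 times the 75th percentile at 0 min and 4.39 and 4.3 times at 90 min. FAS2 (YPL231W), which encodes the alpha subunit with the acyl carrier domain, gave 12 and 11.8 times at 0 min and 4.5 and 4.85 times at 90 min. The 90 min arrays were lower than the 0 min arrays for both, with no overlap. FAS1 fell 2.72-fold (log2 change -1.44 ± 0.06, limma adjusted p = 2.86e-06) and FAS2 2.54-fold (-1.35 ± 0.06, adjusted p = 4.19e-06). Ordered from the lowest change upward among all 6144 genes, FAS1 stood at rank 68 and FAS2 at rank 94. The difference between them was small: the change of FAS1 minus that of FAS2 was -0.09 on the log2 scale, with a 95% interval of -0.30 to 0.11, and the within-array ratios of the groups overlapped.

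OLE1 (YGL055W), the desaturase that makes the unsaturated fatty acids of the cell, fell by about as much. Its signal was 8.07 and 7.18 times the 75th percentile at 0 min and 3.2 and 2.76 times at 90 min. The replicates stood farther apart than for the other genes, with gaps of 0.17 and 0.22 on the log2 scale, the latter being the largest replicate gap among the 10, but the groups were well separated. OLE1 fell 2.56-fold (-1.36 ± 0.09, limma adjusted p = 2.53e-05) and stood at rank 93, next to FAS2.

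MGA2 (YIR033W) encodes a membrane-bound activator of OLE1 that is cut free to enter the nucleus. It gave 0.425 and 0.394 times the 75th percentile at 0 min and 0.359 and 0.314 times at 90 min. The 90 min arrays were lower, and stood 0.19 apart from each other on the log2 scale. Its log2 change was -0.28 ± 0.08 (limma, adjusted p = 0.0173), and 36.5% of all genes had a lower change, so that MGA2 lay near the middle of the array. The call was lost without replicate 1 at 0 min (-0.23, adjusted p = 0.0995) and without replicate 2 at 90 min (-0.19, adjusted p = 0.0807), and the change was -0.19 in the authors' deposited values, -0.18 after normexp correction, -0.48 on unscaled arrays and -0.74 on the spike-in scale.

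SPT23 (YKL020C), the relative of MGA2 with an overlapping role at OLE1, rose by 0.25 ± 0.06 (limma, adjusted p = 0.00994). With spike-in scaling it did not pass, at -0.20 (adjusted p = 0.237). The within-array log2 ratio of MGA2 to SPT23 does not change when an array is multiplied by a constant. It was -0.51 and -0.55 at 0 min and -1.02 and -1.11 at 90 min, a difference of -0.54 with a 95% interval of -0.73 to -0.34. The difference was -0.49 with quantile normalization, -0.44 with normexp and -0.43 in the authors' deposited values. The genes whose products release the activators from the membrane were measured as a list of 6 that included SPT23, of which 5 rose and 0 fell (limma, also 5 and 0 at an unadjusted p under 0.05), with a median of 0.39. Over all genes 30.3% rose and 46.2% fell. CDC48, the segregase ATPase, rose by 0.75 ± 0.06, its cofactors UFD1 and NPL4 each by 0.47 (SE 0.07 and 0.08), and UBX2, a membrane recruiter of Cdc48, by 0.31 ± 0.06. RSP5, the ubiquitin ligase of this step, had a change of 0.14 ± 0.06 and did not pass. It rose by 0.18 both with normexp (limma, adjusted p = 0.0139) and in the authors' deposited values (adjusted p = 0.0229), where all 6 genes rose. With spike-in scaling 0 of the 6 passed (limma, 0 also at an unadjusted p under 0.05, median -0.06). RSP5 and CDC48 then had changes of -0.31 (limma, adjusted p = 0.065) and 0.30 (adjusted p = 0.0757). Over all genes 745 of 6144 rose and 4090 fell on that scale, with a median of -0.58. The calls and signs of this list thus depend on the scaling, but its median lay above that of all genes on both scales.

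**Figure D2:**
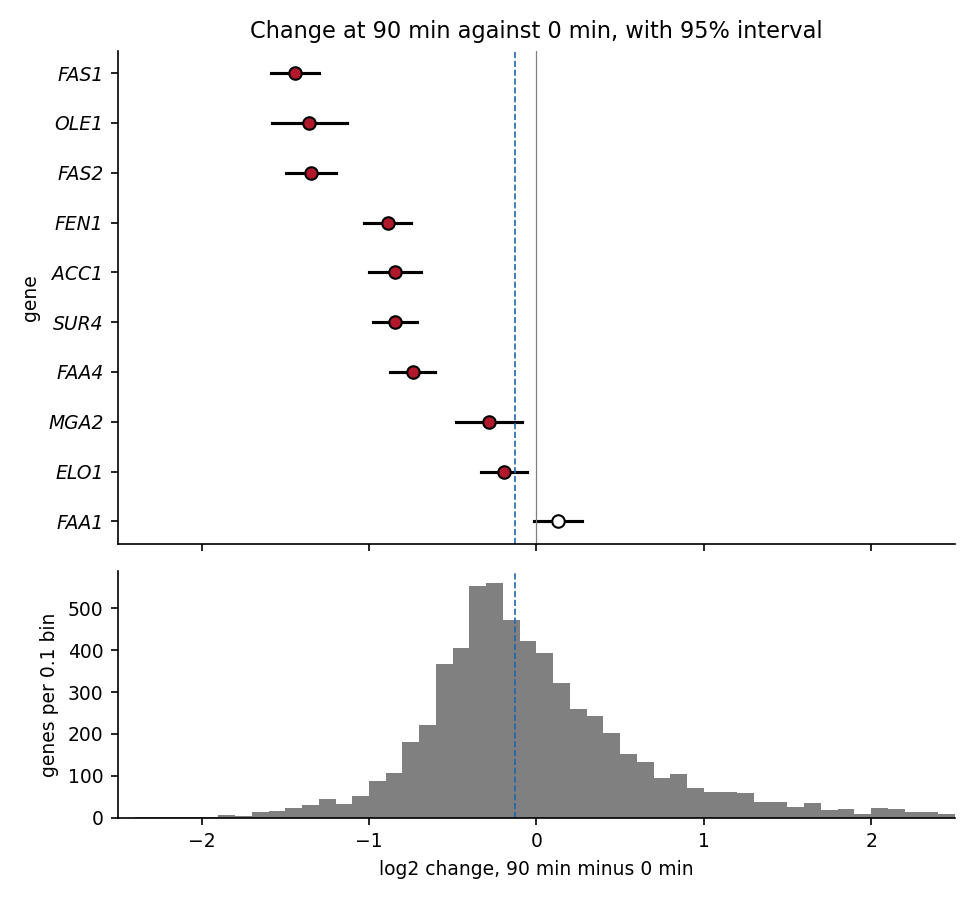
Upper panel, log2 change of each of the 10 genes (90 min minus 0 min) with its 95% interval from limma, filled where the test passed; lower panel, number of all tested genes per 0.1 of log2 change between -2.5 and 2.5, with the dashed line at the median of all genes. The 3 genes FAS1, OLE1 and FAS2 lie at -1.44 to -1.35 in the lower tail, while MGA2, ELO1 and FAA1 lie within the bulk of the genes.

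The 3 elongase genes did not move alike. ELO1 (YJL196C) encodes the elongase of medium-chain acyl groups, and FEN1 and SUR4 the elongases that make long and very long chains for sphingolipids. ELO1 gave 0.939 and 0.985 times the 75th percentile at 0 min and 0.844 and 0.836 times at 90 min. The groups were separated by a small step, and its log2 change was -0.20 ± 0.06 (limma, adjusted p = 0.0179), beside -0.13 for the median gene. Unscaled arrays gave -0.39 and the spike-in scale -0.65, beside medians of -0.32 and -0.58.

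FEN1 gave 2.94 and 2.98 times at 0 min and 1.66 and 1.55 times at 90 min. SUR4 gave 2.18 and 2.22 times at 0 min and 1.22 on both arrays at 90 min. Both were clearly lower at 90 min, with replicate gaps under 0.09 on the log2 scale. FEN1 fell 1.85-fold (-0.89 ± 0.06, limma adjusted p = 2.16e-05) and SUR4 1.80-fold (-0.85 ± 0.05, adjusted p = 1.85e-05).

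The change of ELO1 exceeded that of FEN1 by 0.69 (95% interval 0.50 to 0.88) and that of SUR4 by 0.65 (0.46 to 0.83), and the within-array ratios did not overlap between the groups. FEN1 and SUR4 differed by -0.04, with a 95% interval of -0.23 to 0.15. The ELO1 call was lost without replicate 2 at 0 min (-0.16, adjusted p = 0.101), replicate 1 at 90 min (-0.20, adjusted p = 0.051) or replicate 2 at 90 min (-0.19, adjusted p = 0.0627). The elongases are related in sequence and each is read by a single probe, so cross-hybridisation between them is uncertain and was not tested.

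The other enzymes of the elongation cycle changed little. IFA38, the ketoreductase, had a log2 change of -0.15 ± 0.06, PHS1, the dehydratase, -0.15 ± 0.07, and TSC13, the enoyl reductase, 0.03 ± 0.06. None of the 3 passed (limma, adjusted p = 0.056, 0.0918 and 0.694; 1 at an unadjusted p under 0.05). With spike-in scaling all 3 fell, by 0.43 to 0.61, beside a median of -0.58 over all genes and 4090 of 6144 genes fallen.

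The 2 main acyl-CoA synthetase genes parted. FAA1 (YOR317W) encodes the principal synthetase for long-chain fatty acids taken up by the cell, and FAA4 (YMR246W) a second synthetase with overlapping function. FAA1 gave 1.31 times the 75th percentile on both arrays at 0 min and 1.48 and 1.39 times at 90 min. The 90 min arrays were slightly higher, and the log2 change of 0.13 ± 0.06 did not pass (limma, adjusted p = 0.0871). Its sign depends on the scaling: the change was -0.066 with no scaling between arrays and -0.32 with spike-in scaling, and with median scaling it was 0.17 and passed (adjusted p = 0.0308).

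FAA4 gave 2.9 and 3 times at 0 min and 1.78 and 1.76 times at 90 min, a clear separation. It fell 1.67-fold (-0.74 ± 0.06, limma adjusted p = 3.92e-05). The change of FAA1 minus that of FAA4 was 0.87, with a 95% interval of 0.67 to 1.06, which multiplying an array by a constant does not alter. The difference was 0.88 with quantile normalization, 0.93 with normexp and 0.94 in the authors' deposited values. Within an array the log2 ratio of FAA1 to FAA4 moved from -1.14 and -1.20 at 0 min to -0.27 and -0.34 at 90 min.

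**Figure D3:**
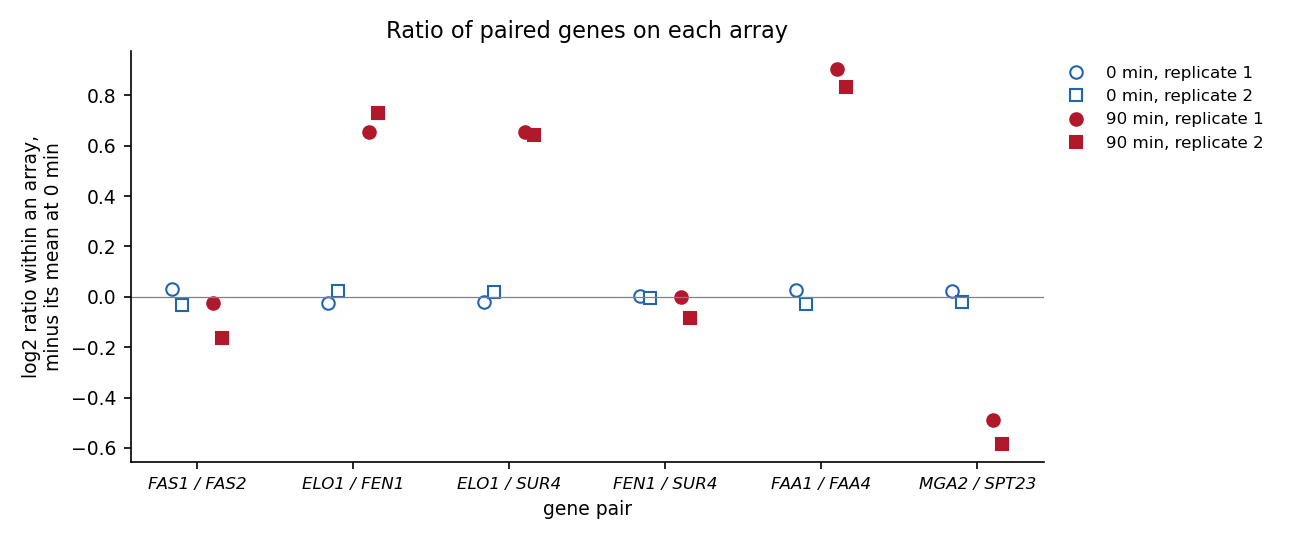
Log2 ratio of the first to the second gene of 6 pairs within each array, shown relative to the mean ratio at 0 min; open blue symbols are 0 min, filled red symbols 90 min, circles replicate 1, squares replicate 2. FAA1 over FAA4 and ELO1 over FEN1 or SUR4 are higher on both 90 min arrays, MGA2 over SPT23 is lower, and FAS1 over FAS2 and FEN1 over SUR4 overlap between the groups.

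Among the other genes of activation and transport, 1 of 4 fell and 1 rose, beside 46.2% fallen and 30.3% risen over all genes. FAA3, a further acyl-CoA synthetase, fell by 0.99 ± 0.06 on the log2 scale (limma, adjusted p = 1.69e-05). ACB1, the acyl-CoA binding protein, rose by 0.32 ± 0.07 (adjusted p = 0.00403), but had a change of -0.13 with spike-in scaling. FAA2, the peroxisomal synthetase for medium chains (-0.08 ± 0.06), and FAT1, a very long chain synthetase and transporter (-0.05 ± 0.06), did not pass. With spike-in scaling 3 of the 4 fell and 0 rose (limma, the same at an unadjusted p under 0.05), with FAA2 at -0.53 and FAT1 at -0.50. The median over all genes was then -0.58, with 4090 of 6144 genes fallen.

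Acetyl-CoA supply, citrate transport and biotin attachment were covered by a list of 5 genes. Of these 3 fell and 1 rose, with a median of -1.19, beside 46.2% fallen and 30.3% risen over all genes. ACS2, the acetyl-CoA synthetase of glucose-grown cells, had log2 signals of 1.44 and 1.33 at 0 min and -0.11 and -0.12 at 90 min. ACS1, the glucose-repressed isozyme, had -3.74 and -3.91 at 0 min and -2.06 and -2.16 at 90 min. The isozymes thus moved in opposite directions, by -1.50 ± 0.06 for ACS2 (limma, adjusted p = 2.75e-06) and 1.71 ± 0.08 for ACS1 (adjusted p = 3.59e-06), also with spike-in scaling (-1.95 and 1.26).

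ALD6, the cytosolic aldehyde dehydrogenase that provides the acetate, fell by 1.19 ± 0.06, and CTP1, the mitochondrial citrate carrier, by 2.28 ± 0.06. BPL1, the ligase that attaches biotin to Acc1 and other carboxylases, had a change of -0.10 ± 0.06 and did not pass (adjusted p = 0.184), although it fell by 0.55 with spike-in scaling.

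The mitochondrion has a separate synthesis pathway, which makes the lipoic acid precursor. Of its 8 genes, 3 rose, 2 fell and 3 did not pass, and the median was 0.11, beside 30.3% risen and 46.2% fallen over all genes (-0.35 with spike-in scaling, with 2 risen and 4 fallen). HFA1, the mitochondrial acetyl-CoA carboxylase, rose by 1.05 ± 0.05 (limma, adjusted p = 7.33e-06), from log2 signals of -1.56 and -1.60 to -0.53 and -0.53. ETR1, the enoyl reductase, rose by 1.32 ± 0.06 (adjusted p = 2.89e-06) and HTD2, the dehydratase, by 0.28 ± 0.06.

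OAR1, the ketoreductase, fell by 0.43 ± 0.07, and CEM1, the condensing enzyme, by 0.18 ± 0.06. The OAR1 probe was dim, with log2 signals of -6.31 and -6.37 at 0 min and -6.68 and -6.86 at 90 min. The 90 min signals lay within the range of the mating type alpha genes. ACP1, the acyl carrier protein (0.25 ± 0.10), MCT1, the malonyl transferase (-0.09 ± 0.07), and PPT2, the phosphopantetheine transferase (-0.04 ± 0.06), did not pass. The change of ACC1 minus that of HFA1 was -1.90 (95% interval -2.09 to -1.70), a pair chosen after its values were seen. HFA1 is a close relative of ACC1, and cross-hybridisation between their probes was not tested.

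Regulators known to act on the synthesis genes moved both ways, with 3 of 8 risen, 5 fallen and a median of -0.27. Over all genes 30.3% rose and 46.2% fell. INO2 and INO4 encode the 2 partners of the activator that binds the inositol-sensitive element of FAS1, FAS2 and ACC1. INO2 had log2 signals of -3.84 and -3.94 at 0 min and -4.61 and -4.79 at 90 min, and INO4 had -2.00 and -2.03 at 0 min and -1.39 and -1.32 at 90 min. INO2 thus fell by 0.81 ± 0.08 (limma, adjusted p = 0.000125) while INO4 rose by 0.67 ± 0.06 (adjusted p = 7.23e-05), a difference of 1.48 (95% interval 1.23 to 1.73) for a pair chosen after its values were seen.

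OPI1, the repressor of the same element, fell by 0.23 ± 0.08. RAP1, ABF1 and REB1, general factors that bind the FAS promoters, fell by 0.78 ± 0.06, 0.66 ± 0.06 and 0.31 ± 0.06. SNF1, the kinase that inhibits Acc1, rose by 0.46 ± 0.07, and its activating subunit SNF4 by 0.27 ± 0.06. With spike-in scaling the 5 falls held and 0 of the 8 rose (limma, 0 also at an unadjusted p under 0.05), with changes of 0.21 for INO4 (adjusted p = 0.209), 0.01 for SNF1 (adjusted p = 0.965) and -0.19 for SNF4 (adjusted p = 0.277), and a list median of -0.72. Over all 6144 genes 745 rose and 4090 fell on that scale, with a median of -0.58.

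**Figure D4:**
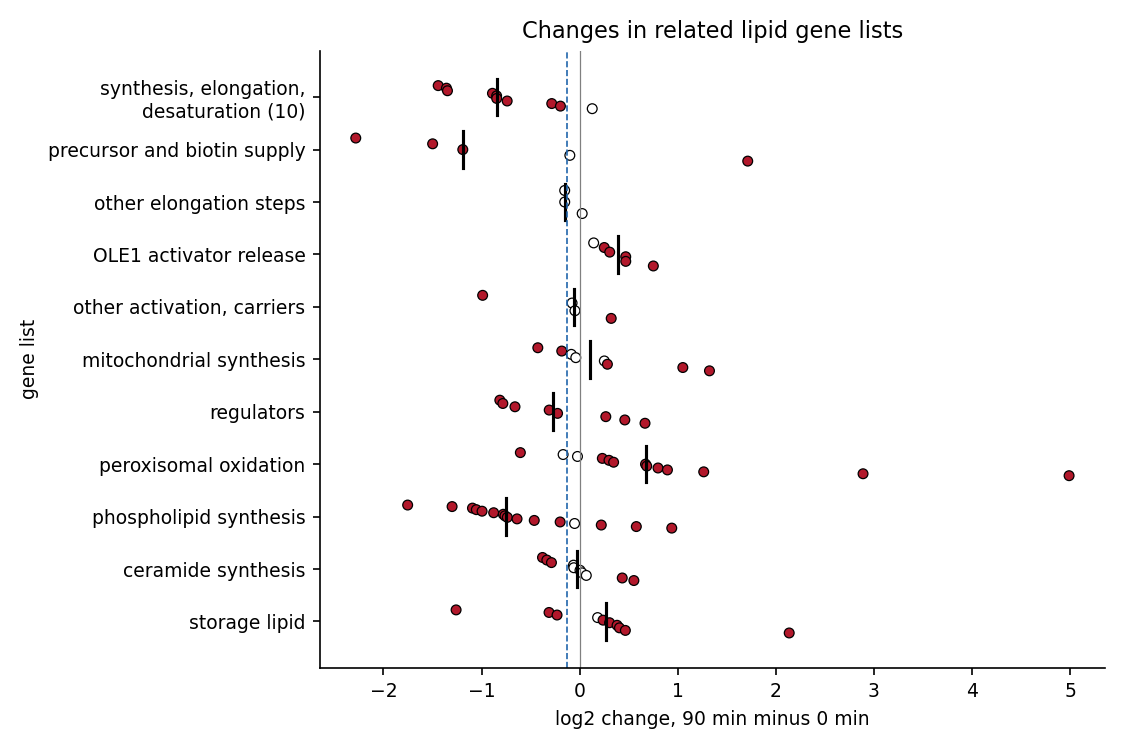
Log2 change of every measured gene of the 10 genes and of 10 related lists; filled points passed the test, open points did not, the black bar is the median of a list and the dashed line the median of all genes. The medians of the 10 genes (-0.85), of the precursor and biotin list, which includes the citrate carrier CTP1 (-1.19), and of phospholipid synthesis (-0.75) lie to the left. The median of peroxisomal oxidation (0.67) lies to the right.

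The lists nearest in function are given side by side, with no test of the difference between lists. Over all 6144 genes tested, 30.3% rose and 46.2% fell, with a median of -0.13. With spike-in scaling 745 of them rose and 4090 fell, with a median of -0.58. Peroxisomal oxidation, which breaks acyl chains down, had 10 of 13 genes risen and 1 fallen, with a median of 0.67. POT1, the thiolase, rose by 4.99 ± 0.06, CTA1, the peroxisomal catalase, by 2.89 ± 0.07, FOX2, the multifunctional enzyme, by 1.26 ± 0.07 and POX1, the acyl-CoA oxidase, by 0.89 ± 0.07. The POX1 probe was dim, with log2 signals of -6.86 and -6.87 at 0 min. The size of its change depended on the processing, at 0.38 with normexp and 0.49 in the authors' deposited values. With spike-in scaling 5 rose and 3 fell, with a median of 0.22.

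Phospholipid synthesis, which uses acyl-CoA, had 12 of 16 genes fallen and 3 risen, with a median of -0.75. INO1, the inositol phosphate synthase, fell by 1.75 ± 0.06, CHO2 and CHO1, of phosphatidylcholine and phosphatidylserine synthesis, by 1.30 ± 0.07 and 1.09 ± 0.07, and ECT1, of the ethanolamine branch, by 1.05 ± 0.07. With spike-in scaling 13 fell and 1 rose, with a median of -1.20.

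Ceramide synthesis, which uses the very long chains of FEN1 and SUR4, had 2 of 10 genes risen and 3 fallen, with a median of -0.03. With spike-in scaling 0 rose and 8 fell (limma, the same at an unadjusted p under 0.05), with a median of -0.48. The medians over all genes were -0.13 and -0.58, and 4090 of 6144 genes fell with spike-in scaling. LAC1, a ceramide synthase, rose by 0.55 ± 0.06 and LIP1, its small subunit, by 0.43 ± 0.07. SUR2, the sphinganine hydroxylase, fell by 0.38 ± 0.08 and AUR1, the inositolphosphorylceramide synthase, by 0.33 ± 0.06. With spike-in scaling LAC1 and LIP1 did not pass (0.10 and -0.02).

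In storage lipid metabolism 6 of 10 genes rose, 3 fell and the median was 0.27. Under spike-in scaling 1 rose, 3 fell and the median was -0.18. The sterol ester synthase genes ARE1 and ARE2 moved in opposite directions, by 2.14 ± 0.07 and -1.26 ± 0.07. The lipase genes TGL4 and TGL1 rose by 0.47 ± 0.06 and 0.41 ± 0.05 on the main scale, and had changes of 0.01 and -0.05 with spike-in scaling.

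Genes next to the 10 on the chromosome were looked up in the current gene table, after the changes of the 10 were known. Of 20 neighbours, 19 were measured, and 12 fell, 4 rose and 3 did not pass, against 46.2% and 30.3% of all genes. The largest contrast was at FAS2, whose downstream neighbour on the same strand, USV1 (YPL230W), a zinc finger regulator, rose by 2.85 ± 0.11 (limma, adjusted p = 1.71e-06) while FAS2 fell. FAA4 and COA6, annotated head to head, also parted, with COA6, of cytochrome oxidase assembly, rising by 0.74 ± 0.06. Both neighbours were picked for their values.

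The 9 falls were found under every scaling, background correction and filter that was tried with all 4 arrays at the threshold of 0.05, and in the deposited value table. Over all alternatives, including those that leave out an array, log2 changes ranged from -1.89 to -1.40 for FAS1, -1.80 to -1.29 for FAS2 and -1.81 to -1.25 for OLE1. They ranged from -1.30 to -0.80 for ACC1 and SUR4, -1.34 to -0.85 for FEN1 and -1.19 to -0.70 for FAA4, with the lower end at spike-in scaling for all 7 genes. The changes of ELO1 and MGA2 ranged from -0.65 to -0.15 and from -0.74 to -0.18, spreads much like those of the other genes. Both kept their calls under every scaling, but lost them when certain arrays were left out. No spot of the 10 probes was saturated or marked by the scanner software, and all 10 were well above background on all 4 arrays. The gap between the 2 spots of a probe on an array had a median of 0.07 on the log2 scale and reached 0.34 for FEN1 on 1 array at 90 min, so the spots of FEN1 differed by more than its replicate arrays did.

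**Figure D5:**
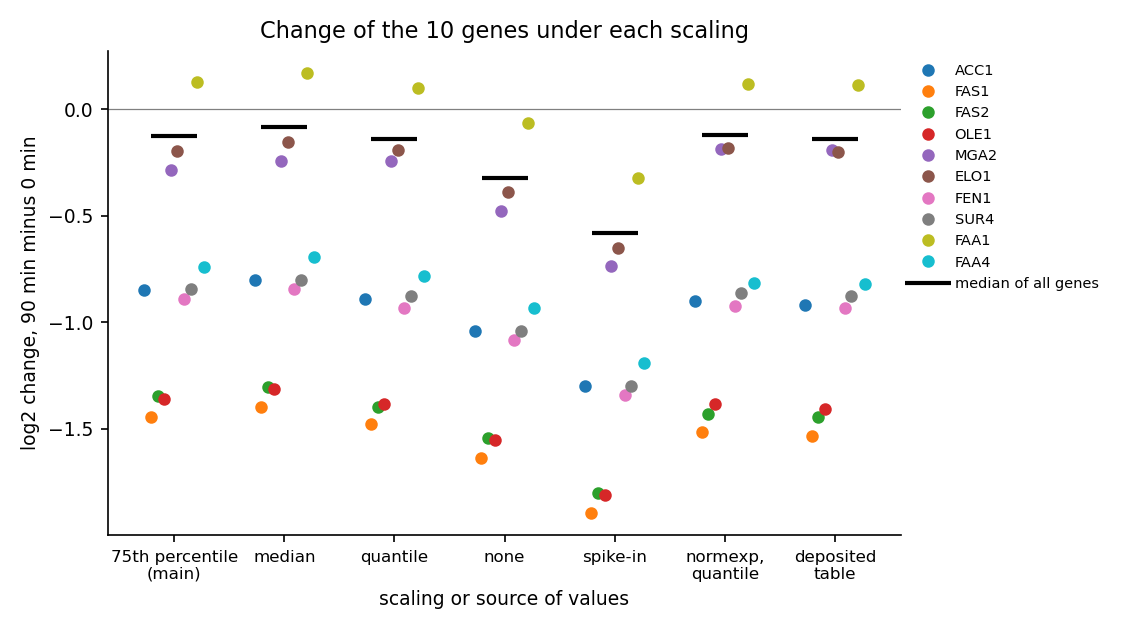
Log2 change of each of the 10 genes under 7 ways of scaling or sources of values, with the median of all genes as a black bar. Without scaling and with spike-in scaling all points move down by the same amount as the median of all genes (-0.32 and -0.58). These settings differ from the main one by a constant per array, so they cannot alter the order of the genes. FAA1 is the gene whose sign turns.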

How the data were processed

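Total RNA of 4 samples was measured on Agilent yeast arrays. Per the file headers, the authors' scanner files come from Agilent Feature Extraction 10.7.3.1 and give each spot's intensity after background subtraction and detrending. The deposited value table holds log2 values whose between-array normalization the sources used here do not state (column medians 11.66 to 11.68, r = 0.9995 to 0.9998 with log2 scanner signal), and the submitters' processing notes name limma.

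The processed signal was divided by the array's 75th percentile over yeast spots and log2-transformed, and spots of a probe were averaged. Probes well above background on both arrays of a group were tested (6175, with 81 left out), and the brightest probe stood for a gene (6144 genes). The test was that of limma 3.58.1 (R 4.3.3, two-sided, 4.46 prior and 2 residual degrees of freedom), Benjamini-Hochberg adjusted over probes. Median signal was 2845 to 3556 against a background of 20.5 to 21. The 2 arrays per group limit the precision. P-values measure the spread between these samples.

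Differences between 2 genes' changes were taken from within-array ratios, with intervals from limma's prior, for 6 planned pairs and 3 added ones, with no p. The members and lists were chosen with earlier results of these data known. Genes were named by a rule: all 10, MSN2, every gene of lists of up to 8, and up to 4 called genes with the largest change from longer lists. The neighbours USV1 and COA6 were named outside this rule, for their values. Alternatives changed the scaling, background correction, source of values, filter, prior, probe choice, threshold, replicate block and arrays left out. Normexp (offset 50) used the median spot signal and was followed by quantile normalization, so its values do not show background correction alone. A planned search for promoter motifs was not run, and array coordinates (sacCer2) differ from the R64 gene table, so positions are not given. The pipeline was tested on simulated data. Figures used Python 3.11.15 and matplotlib 3.10.9.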

Additional observations from a re-analysis of the deposited data

How the results depend on the processing

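With all 4 arrays and a threshold of 0.05, 9 of the 10 genes fell under every alternative run. Leaving out an array gave 7 to 8 falls, with MGA2 and ELO1 losing their calls as given above, and a threshold of 0.01 left 7. With a fold of at least 2 required, 3 remained. Median scaling added 1 rise, FAA1 (0.17), whose change turned to -0.066 without scaling and to -0.32 under spike-in scaling. The median change of the 10 genes, -0.846, was -0.802 with median scaling, -0.882 with quantile normalization, -1.04 with no scaling, -1.298 with spike-in scaling, -0.881 with normexp, -0.896 in the deposited table and -0.855 to -0.823 when an array was left out. The first 4 of these shift or reshape whole arrays, and the normexp setting also includes quantile normalization. The cause of the other differences was not tested. Over all genes 39.6% of calls were rises, against 26.7% without scaling and 15.4% on the spike-in scale, where the spike-in signal itself differed by 0.24 log2 between the 0 min arrays. With the replicate block, 9 of the 10 fell and 0 rose, the same as without it, and 4926 genes were called against 4700. The labels do not say what a shared number marks, and deviations of same-numbered arrays correlated at 0.203 over probes, from 2 pairs. Of 170 single-gene results under alternatives, 162 kept direction and call.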
